A study of Mus musculus with 44 samples.

Results

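The comparison described here was between mice lacking the H+/K+ATPase beta subunit (KO) and wild type mice (WT), both given only the drug vehicle polyethylene glycol (PEG). The members were chosen by their labels, as all libraries of these 2 groups: 13 KO/PEG and 11 WT/PEG libraries, 24 of the 44 in the series. RNA came from the gastric corpus of BalbC mice aged 13 months. The KO allele removes the beta subunit of the gastric proton pump, encoded by Atp4b, in every cell of the animal from conception. Both groups shared the repeated subcutaneous vehicle injections. Per the study the KO line had a mixed origin and was back-crossed repeatedly onto BalbC, and whether the WT mice shared its remaining background is not stated. The other 20 libraries, from mice given the gastrin receptor antagonist netazepide (NTZ), entered the filter on low counts and the estimate of spread but not the comparison. Biopsies were taken from the ventral corpus mucosa, so that each library mixed epithelium, immune cells and stroma, and fewer cells of a type could not be told apart from less RNA per cell.

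Acid is made by parietal cells, which exchange cytosolic protons for luminal potassium through the pump and recycle potassium and chloride through apical channels. This takes much ATP, and parietal cells are packed with mitochondria. Their neighbours in the corpus gland are the pit cells of the surface, the mucous neck cells, the zymogen-storing chief cells and the histamine-releasing ECL cells, which respond to gastrin. Loss of acid is known to raise gastrin, and loss of parietal cells is a known setting for spasmolytic polypeptide-expressing metaplasia (SPEM), in which glands take on mucous neck features. The study leaves its cell of origin open, and proposes that mature chief cells may not be the source in these mice.

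Library totals were 6274018 to 21945124 estimated counts in KO/PEG (median 13045631) and 7881440 to 19277190 in WT/PEG (median 12285692). Levels are given below as CPM, the counts after scaling for library size and composition, and as the lowest, median and highest library of a group. Fold changes are log2 values of KO/PEG over WT/PEG with their standard error from edgeR, and adjusted p-values are Benjamini-Hochberg values of its quasi-likelihood test over 14911 genes. A gene was called where that value was under 0.05. The tissue label fitted the WT/PEG libraries, which held 9294 to 15400 CPM of summed parietal and 88520 to 209400 CPM of summed chief cell markers, and Gast, the antral gastrin gene, was at 0 in the median library of both groups. WT/PEG 120 and 1 other WT/PEG library stood apart with antral endocrine markers, at 24.7 and 11.7 CPM summed, where the next, KO/PEG 46, held 4.88 CPM. Without both of them 10808 genes were called, and Nkx6-3, the 1 antral marker tested, which fell by 2.45 ± 0.89 on the log2 scale, was at -0.08 (2.29 in KO/PEG 46). The labels name no mouse beyond a number, and there are more KO/PEG libraries than KO/PEG mice in the study's methods. Libraries may thus share a mouse, in which case the p-values are too small.

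The targeted gene separated the groups. Atp4b (ENSMUSG00000031449, minus strand, GRCm38 chr8:13386205-13396825) lay at 2879, 3831 and 5761 CPM in WT/PEG and at 2.34, 5.61 and 17.2 CPM in KO/PEG. Every KO/PEG library was below every WT/PEG library, as a mean of 6.84 ± 3.90 CPM (SD, n = 13) against 3932 ± 723 CPM (SD, n = 11). The log2 fold change was -9.17 ± 0.38 (edgeR, adjusted p = 4.8e-23). Of the 23 other genes tested within 1 Mb of Atp4b, 18 were called, 8 higher and 10 lower. This was 78.3% of them, beside 74.5% of all genes tested.

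The groups differed over most of the transcriptome. Of the 14911 genes, 11111 were called, 5578 (37.4%) higher and 5533 (37.1%) lower in KO/PEG, and 4058 (27.2%) were called and changed at least 2-fold. Each group of genes below is read against these shares. Scaled to library totals alone the split was 7276 higher and 2967 lower (71% and 29%) and the median gene moved up by 0.29 on the log2 scale. The 10 most counted genes took 28.2% to 39.7% of counts in WT/PEG and 13.0% to 17.6% in KO/PEG. In 855 genes (5.73%) every KO/PEG library was above every WT/PEG library, and in 1281 genes (8.59%) every one was below.

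Fold change followed transcript length. In the decile of genes with the shortest transcripts, 38 to 946 bases, the median log2 fold change was 0.97, and 74.2% of those genes were called higher. In the decile with the longest, 5808 to 123200 bases, the median was -0.71 and 77% were called lower. The slope of log2 level on log2 length, relative to the WT/PEG mean, was -0.64 to -0.10 in KO/PEG libraries and -0.15 to 0.08 in WT/PEG libraries. The groups nearly separated on this measure, and the part of transcript length in the fold change of any 1 gene was not tested apart from genotype. Fold change followed GC content too, with a median of -0.73 in the decile of lowest GC content (30.9% to 42%) and 0.52 in the highest. A second fit was therefore made with smooth trends on length and GC content removed from each library. It called 9328 genes (62.6%), 4882 (32.7%) higher and 4446 (29.8%) lower. Both fits called 3577 genes (24%) higher and 3430 (23%) lower, 751 genes were called in opposite directions, and 3353 were called by the first fit alone. In the text below the second value of a pair is the one with these trends removed.

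**Figure D1:**
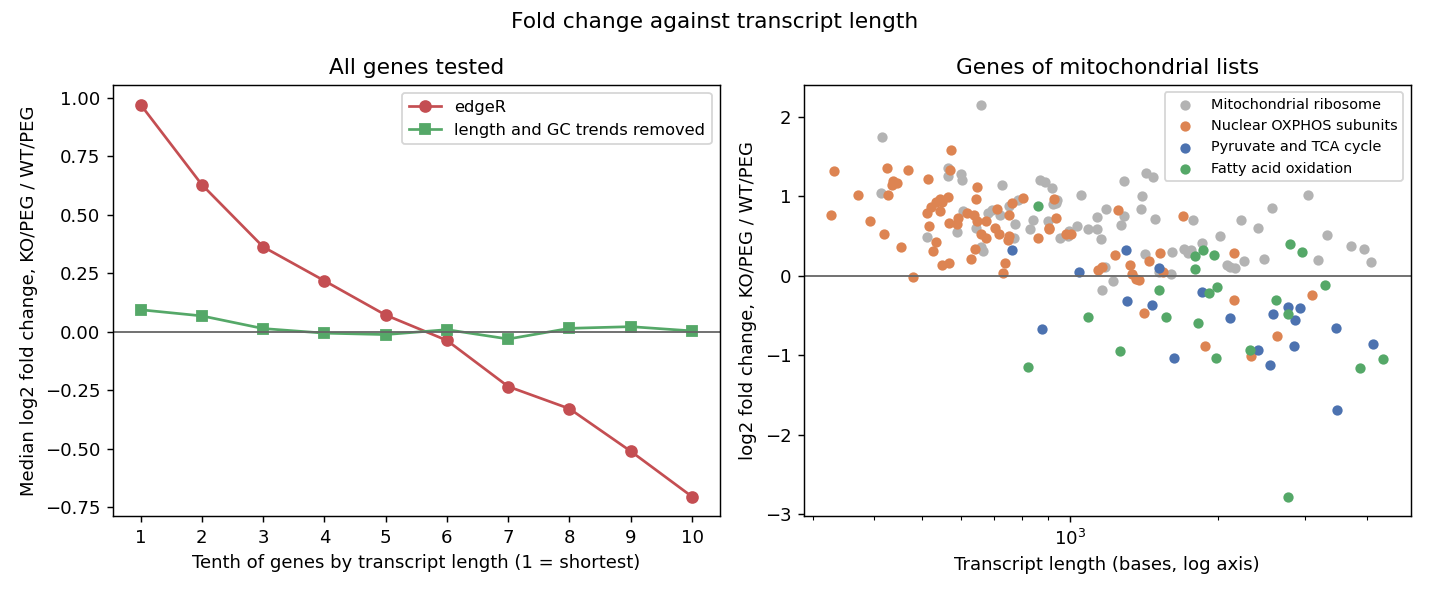
Left, median log2 fold change of KO/PEG over WT/PEG in 10 equal groups of genes ordered by transcript length, from the edgeR fit (red circles) and with length and GC trends removed (green squares). Right, log2 fold change of each gene of 4 mitochondrial lists against transcript length in bases on a log axis. The median fell from 0.97 in the shortest decile to -0.71 in the longest and stayed within 0.1 of zero with the trends removed, and nuclear OXPHOS subunit genes, mostly short, lay above zero where the longer TCA cycle genes lay below.

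One KO/PEG library, number 46, stood apart from the other 12. It had the flattest length slope of its group (-0.10) and the highest mitochondrial share, 14.4% of counts where the KO/PEG median was 4.83%. Its summed red cell markers were 4175 CPM, the highest of the 24 libraries, beside a KO/PEG median of 298. It also had the highest summed smooth muscle markers of its group and the lowest neck cell markers. Its own log2 difference from the WT/PEG mean, without removal of trends, is given below for the lists whose median had the other sign there.

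Most of the acid secretion machinery was lower in KO/PEG. Of 24 genes tested out of 25 listed, 17 fell and 5 rose, with a median log2 fold change of -0.99 (trends removed: 17 fell, 2 rose, median -0.78), beside a median of -0.005 over all genes (0.02). Their summed level was 15200, 19410 and 22620 CPM in WT/PEG and 5781, 8567 and 13210 CPM in KO/PEG, with no overlap. Casr, the calcium-sensing receptor, was too low to be tested. Atp4a, the catalytic alpha subunit of the pump, which the KO allele does not touch, lay at 6176, 8160 and 9328 CPM in WT/PEG and at 1928, 3576 and 7024 CPM in KO/PEG. The groups overlapped at their edges, and it fell by 1.0 ± 0.17 on the log2 scale (edgeR, adjusted p = 1.6e-06). The mean level of the beta subunit transcript was 575-fold lower and that of the alpha subunit 2.0-fold lower.

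Potassium and chloride transport genes were mostly lower as well. Of 13 ion transport genes 11 fell and 1 rose (12 fell, none rose with trends removed). Kcnj16, an inwardly rectifying potassium channel, lay at 285, 425 and 560 CPM in WT/PEG and 14.2, 31.3 and 54.6 CPM in KO/PEG. The groups were far apart, at -3.69 ± 0.20 (adjusted p = 2.1e-19; -3.15 with trends removed). Slc26a7, an anion exchanger, lay at 35.4, 55.9 and 71.3 against 1.50, 4.04 and 9.98 CPM, again without overlap (-3.50 ± 0.30, adjusted p = 5.8e-13; -2.31). Slc26a9, a chloride channel, fell by 2.02 ± 0.17, Kcnj15 by 1.77 ± 0.18 and Kcne2, the accessory subunit of the apical potassium channel, by 1.24 ± 0.18. Kcnq1, the pore-forming partner of Kcne2, had a median of 174 and a highest library of 251 CPM in WT/PEG and 161 and 225 CPM in KO/PEG. The groups overlapped over most of their range, and its fold change was -0.11 ± 0.12 (adjusted p = 0.37). With trends removed Kcnq1 was at -0.27 and was called lower. Car2, the carbonic anhydrase that supplies protons, rose by 0.30 ± 0.11 and was at 0.08 with trends removed, no longer past the threshold.

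The receptors that drive the parietal cell moved in both directions. Hrh2, the histamine receptor, lay at 16.3, 20.8 and 23.9 CPM in WT/PEG and 0.862, 2.05 and 4.94 CPM in KO/PEG. No library overlapped, at -3.11 ± 0.21 (edgeR, adjusted p = 6.9e-16). Sstr2, which mediates somatostatin's inhibition, fell by 1.29 ± 0.21, and Chrm3, the muscarinic receptor, by 0.48 ± 0.13 (-0.17 and not past the threshold with trends removed). Cckbr, the gastrin receptor carried by ECL as well as parietal cells, was higher, at 2.95, 5.99 and 10.2 CPM in WT/PEG and 8.51, 18.7 and 31 CPM in KO/PEG (1.60 ± 0.21, adjusted p = 1.7e-08). Canalicular membrane traffic was mixed. Ezr, encoding ezrin, fell by 0.72 ± 0.08 and was also called lower with trends removed, while Rab25 and Vamp2 rose only before the trends were removed.

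**Figure D2:**
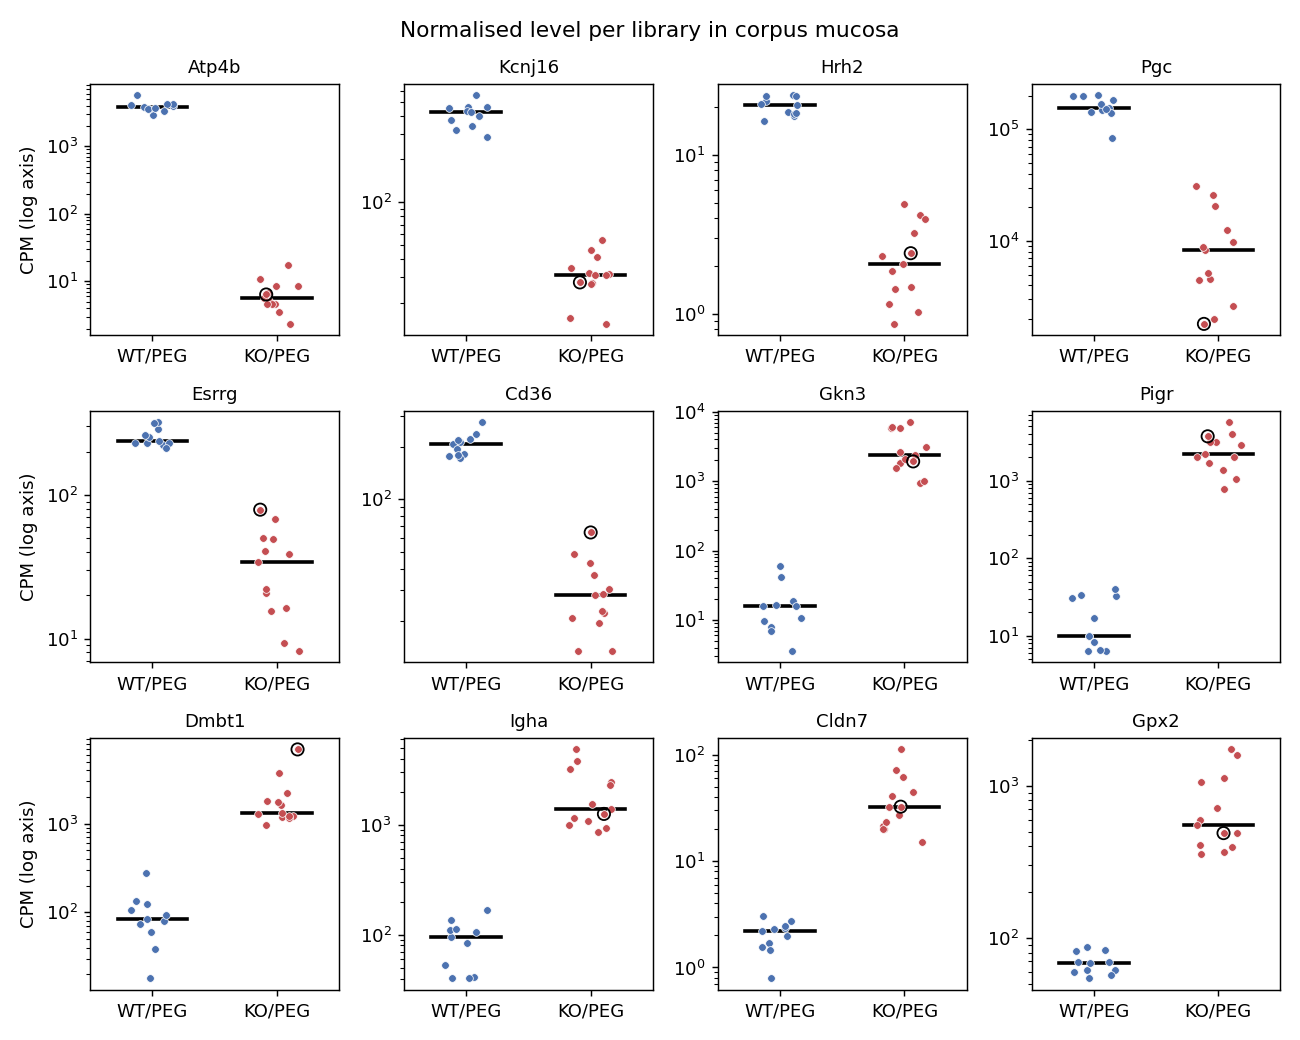
CPM on log axes for 12 genes, each point 1 library of WT/PEG (n = 11, blue) or KO/PEG (n = 13, red), black bars the group medians and the open ring KO/PEG 46. In all 12 genes every KO/PEG library lay on one side of every WT/PEG library.

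Transcripts of the ERR and PGC-1 family, which switch on mitochondrial and fatty acid genes in energy-demanding cells, fell with the acid genes. Of 10 regulators 7 fell and 1 rose, at a median of -1.64. With trends removed the same 7 fell and 2 rose, at -1.46. The 2 were Tfam (-0.04 in the first fit, 0.35 with trends removed) and Nrf1 (0.13 and 0.15), neither called in the first fit. Esrrg, encoding the nuclear receptor ERR-gamma, lay at 212, 238 and 321 CPM in WT/PEG and 8.19, 33.9 and 79.0 CPM in KO/PEG, without overlap (-2.87 ± 0.31, adjusted p = 2.1e-10; -2.19). Ppargc1a, its coactivator PGC-1-alpha, lay at 13.8, 25.9 and 35.0 against 2.17, 4.65 and 7.15 CPM (-2.48 ± 0.20, adjusted p = 8.2e-14; -1.58). Esrrb fell by 1.95 ± 0.22, Perm1, a muscle regulator of the same pathway, by 2.10 ± 0.18, Ppara by 2.64 ± 0.30 and Ppargc1b by 1.32 ± 0.13. Esrra, the more widely expressed receptor, rose by 0.45 ± 0.12 in the first fit and was at -0.04 with trends removed.

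Of the enzymes of pyruvate entry and the TCA cycle 16 of 20 fell and 2 rose, and 19 fell with trends removed, with medians of -0.50 and -0.65. Their summed level was 4166, 4667 and 5562 CPM in WT/PEG and 2673, 3305 and 4325 CPM in KO/PEG, and only the highest KO/PEG library reached the WT/PEG range. Ogdh, of the 2-oxoglutarate dehydrogenase complex, lay at 502, 608 and 648 CPM in WT/PEG and 267, 324 and 432 CPM in KO/PEG, without overlap (-0.86 ± 0.07, adjusted p = 7e-14, and -0.65 with trends removed). Pdha1, of the pyruvate dehydrogenase complex, fell by 0.88 ± 0.08, Idh2 by 1.04 ± 0.14, Dld by 1.12 ± 0.14 and Cs, citrate synthase, by 0.40 ± 0.06. Fatty acid oxidation moved the same way, with 12 of 23 genes lower and 6 higher at a median of -0.30, and 16 lower and 1 higher at -0.65 with trends removed. Cd36, which carries fatty acids across the membrane, lay at 174, 208 and 277 CPM in WT/PEG and 13.4, 28.1 and 64.5 CPM in KO/PEG (-2.78 ± 0.23, adjusted p = 2.2e-13; -2.12). Cpt1a, the entry step to the mitochondrion, fell by 1.04 ± 0.13 and Acadm, the medium-chain dehydrogenase, by 1.04 ± 0.12.

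The direction of the nuclear genes for the respiratory chain changed when length and GC trends were removed together. Of 77 subunit genes 57 were called higher and 6 lower at a median of 0.60. With trends removed 6 were higher and 43 lower, and the median was -0.26. In KO/PEG 46 alone the median difference from the WT/PEG mean, without removal of trends, was -0.57. The same turn was seen in all 5 complexes, for example in complex I from 29 higher and 1 lower of 37 genes to 5 higher and 21 lower. The 5 subunits that fell in both fits, given with values of the first, were Ndufs1 of complex I (by 1.0 ± 0.10), Sdha of complex II (by 0.76 ± 0.10), Uqcrc2 of complex III (by 0.89 ± 0.18) and Atp5a1 and Atp5b of the ATP synthase (by 0.31 ± 0.08 and 0.47 ± 0.08). Another 5, Ndufa2, Ndufab1, Ndufb3, Ndufb4 and Ndufs4 of complex I, rose in both, the last by 0.75 ± 0.11 (0.79). The mitochondrial genome was lower, with 13 of 13 genes down at a median of -1.16 (12 of 13 at -0.90 with trends removed), and summed levels of 65330, 103300 and 126600 CPM against 23130, 44500 and 104300 CPM. KO/PEG 46 was the library at 104300, with a median of 0.10, and the other 12 were below every WT/PEG library.

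Every ribosomal protein gene tested rose: 74 of 74 (75 listed) were higher at a median of 1.39, where 37.4% of all genes were. With trends removed 65 were higher and 1 lower, at 0.51. Rpl3, of the large subunit, rose by 1.38 ± 0.13 (0.85), and Rpl22 by 0.99 ± 0.09 (0.37). Mitochondrial ribosome genes were mostly higher in the first fit, 68 of 75 at 0.64, and split with trends removed, at 25 higher, 15 lower and 0.07 (KO/PEG 46, -0.17). Ribosomal protein genes have many processed pseudogenes of near-identical sequence, which makes single members uncertain. Glycolysis rose in the first fit (11 of 18 higher, 3 lower, median 0.44) and was split with trends removed (7 and 6, median -0.01, and -0.17 in KO/PEG 46). Hk2, the hexokinase isoform that is low in most resting epithelia, rose in both, from 5.85, 8.30 and 11.8 CPM to 16.7, 31.6 and 78.0 CPM without overlap (2.02 ± 0.19, adjusted p = 4.1e-12; 2.30).

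**Figure D3:**
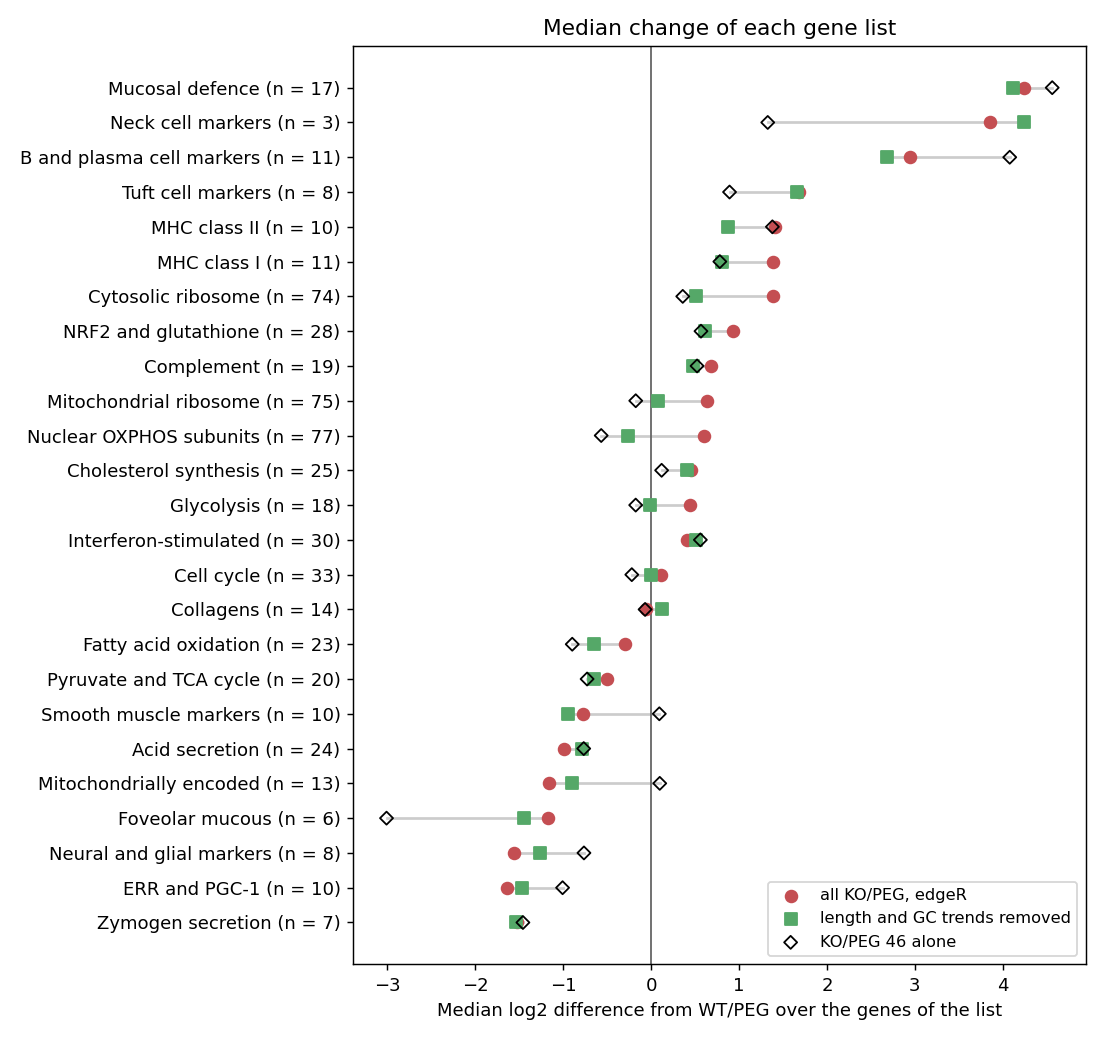
Median log2 difference from WT/PEG over the tested genes of each list, with the number of genes in brackets: the edgeR fit over all KO/PEG libraries (red circles), the same with length and GC trends removed (green squares) and the difference of KO/PEG 46 alone from the WT/PEG mean (open diamonds). Mucosal defence (17 of 22 genes tested, several of them through KO/PEG only) lay at 4.24 and 4.11, neck cell markers at 3.86 and 4.24, zymogen and ERR and PGC-1 genes lay below -1.4 in both fits, and nuclear OXPHOS subunits moved from 0.60 to -0.26.

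Genes for zymogens and their secretion were lower, with 5 of 7 tested genes down and 2 up (median -1.52, and -1.54 with trends removed), and 5 of the 8 listed genes are also transcripts that the study listed. Pgc, pepsinogen C, lay at 84240, 153700 and 202000 CPM in WT/PEG and 1810, 8318 and 30830 CPM in KO/PEG (-3.94 ± 0.41, adjusted p = 5e-11). Chia1, an acidic chitinase, ranged from 7.77 to 14120 CPM in KO/PEG around a median of 660, where WT/PEG lay at 7275, 27890 and 52260 CPM (-3.15 ± 0.85, adjusted p = 0.0011). The lowest KO/PEG value of Pgc belonged to number 46. Pga5, another pepsinogen, rose by 2.46 ± 0.41, with overlap, and was at -0.80 in KO/PEG 46. Bhlha15, the transcription factor MIST1 that builds the secretory apparatus of chief cells, fell by 1.52 ± 0.23 (-1.54 with trends removed). Lipf was too low to be tested. Among genes for folding in the endoplasmic reticulum there was no common direction: 13 of 29 were higher and 9 lower. Dnajb9 and Eif2ak3, of the unfolded protein response, fell, while Manf and Pdia6 rose in both fits.

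Of 6 foveolar mucous genes 4 fell and 1 rose (5 and 1 with trends removed). Gkn1 and Gkn2, the gastrokines of pit cells, each fell by 1.31 on the log2 scale (SE 0.21 and 0.23; -1.71 and -1.80 with trends removed), and 12 of 13 KO/PEG libraries were below the lowest WT/PEG library for both. Muc5ac, the surface mucin, lay at 2152, 5050 and 5827 CPM in WT/PEG and 132, 1116 and 4430 CPM in KO/PEG (-1.76 ± 0.40, adjusted p = 0.00016). Tff1, the pit cell trefoil peptide, lay at 14850, 19490 and 24870 CPM in WT/PEG and 5695, 18490 and 36510 CPM in KO/PEG, with wide overlap (-0.0019 ± 0.22, adjusted p = 0.99), and was called lower, at -0.94, with trends removed. KO/PEG 46 had the lowest pit cell marker sum, 14730 CPM. Gkn3, a gastrokine of neck cells, went from 3.56, 15.6 and 60.7 CPM to 940, 2407 and 7066 CPM, without overlap (7.42 ± 0.56, adjusted p = 1.2e-14; 6.63). All 3 neck cell markers, Tff2, Muc6 and Cftr, rose, and all are transcripts that the study listed. KO/PEG 46 had 1343 CPM of them, inside the WT/PEG range of 806 to 1391.

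Mucosal defence genes rose. Of 22 listed genes 17 were tested and 16 rose, and 15 rose with trends removed. Several passed the filter on low counts only through KO/PEG, so their medians are not a measure of the whole list. Nox1, Reg3a, Pla2g2a, S100a8 and Camp were too low to be tested. The summed level was 132, 386 and 778 CPM in WT/PEG and 4549, 9701 and 24970 CPM in KO/PEG, without overlap. Pigr, the receptor that carries polymeric IgA across epithelium, lay at 6.36, 10 and 40.1 CPM in WT/PEG and 778, 2186 and 5648 CPM in KO/PEG (7.13 ± 0.58, adjusted p = 1.1e-13). Pigr and Wfdc2 are also transcripts that the study listed. Dmbt1, a bacteria-binding scavenger protein of mucus, lay at 18.1, 83.3 and 277 against 960, 1326 and 6894 CPM (4.36 ± 0.46, adjusted p = 7e-11), the highest in KO/PEG 46. Bpifb1, a secreted protein of airway and oral mucus, rose by 4.98 ± 0.53 and the antibacterial lectins Reg3b and Reg3g, near-identical genes, by 7.53 ± 0.85 and 7.75 ± 0.75 from WT/PEG levels under 1 CPM. Fitted fold changes of genes this low in one group depend on the prior count.

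The hydrogen peroxide oxidases Duox1 and Duox2 rose with their maturation factors Duoxa1 and Duoxa2. Duox2 lay at 5.60, 35.9 and 64.7 CPM in WT/PEG and 139, 251 and 548 CPM in KO/PEG (3.06 ± 0.34, adjusted p = 2.5e-10; 3.39). Duoxa2, needed to bring DUOX2 to the cell surface, lay at 0.970, 4.71 and 13.8 against 95, 156 and 331 CPM (4.82 ± 0.43, adjusted p = 1.1e-12; 4.28). Neither overlapped between groups. Nos2, the inducible nitric oxide synthase, rose by 2.03. Lyz1, the Paneth cell lysozyme, was uneven: its KO/PEG median was 1.20 CPM and its highest library, number 46, was at 692 CPM, beside 0.108, 0.599 and 4.15 CPM in WT/PEG. Ltf, lactoferrin, likewise ran from 4.35 to 788 CPM in KO/PEG.

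Transcripts of IgA-producing cells rose. All 11 tested B and plasma cell markers rose in both fits, with Tnfrsf17 too low to be tested, and the summed level was 98, 205 and 525 CPM in WT/PEG and 1865, 3255 and 9894 CPM in KO/PEG. Some, such as Mzb1 at a WT/PEG median of 0.48 CPM, could not have passed the filter on low counts through WT/PEG alone. Igha, the IgA heavy chain, lay at 40.3, 94.7 and 167 CPM in WT/PEG and 857, 1382 and 4847 CPM in KO/PEG (4.46 ± 0.49, adjusted p = 2.8e-10). Jchain, which joins IgA into the polymers that Pigr transports, rose by 3.48 ± 0.45 (adjusted p = 8.2e-09; 3.76). Igha and Pigr, the antibody and its carrier, were both higher in every KO/PEG library than in any WT/PEG library. Immunoglobulin segments share sequence, so that single constant regions are less certain than the sum.

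**Figure D4:**
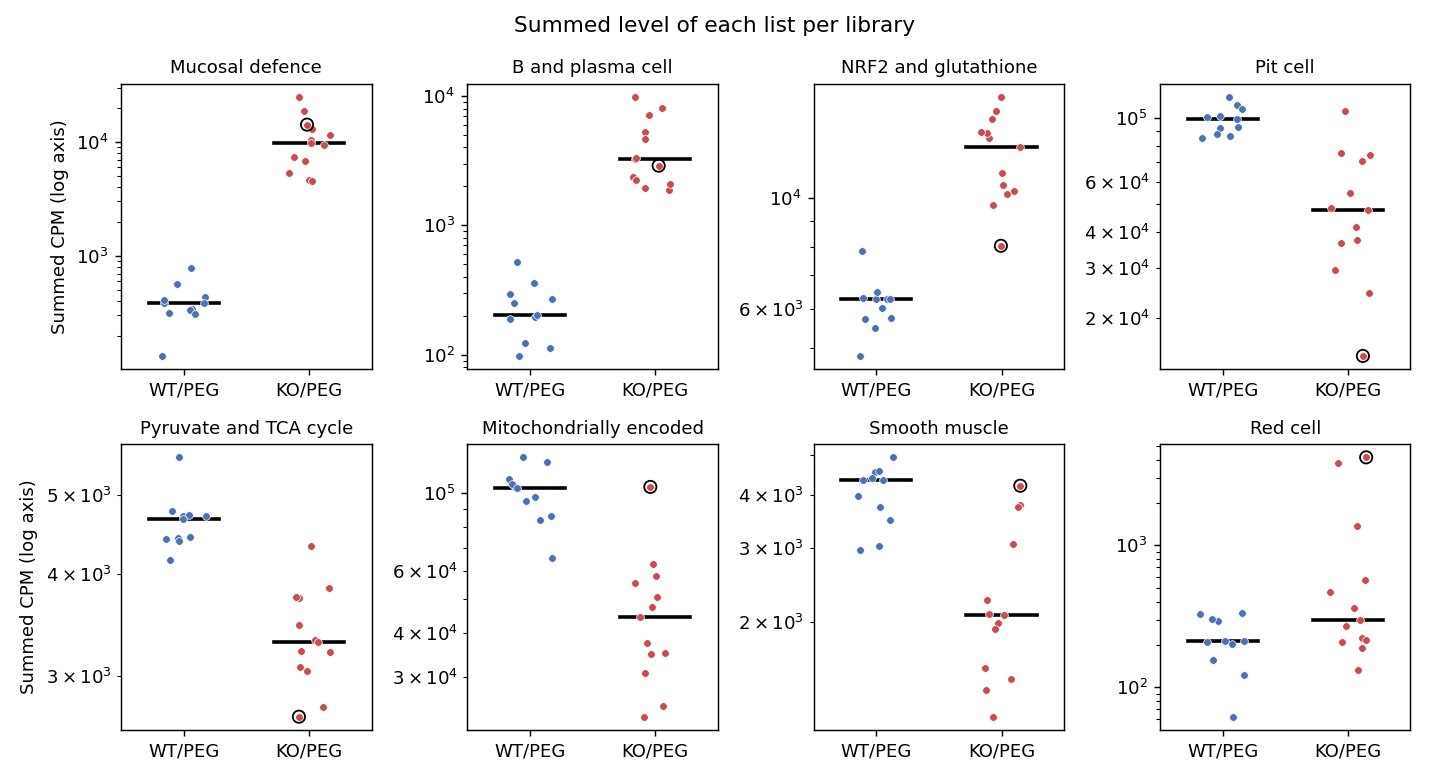
Summed CPM of 8 lists on log axes, each point 1 library of WT/PEG (n = 11, blue) or KO/PEG (n = 13, red), black bars the group medians and the open ring KO/PEG 46. Mucosal defence, B and plasma cell and NRF2 and glutathione sums did not overlap between the groups, and KO/PEG 46 held the lowest pit cell sum and the highest red cell and mitochondrial sums of its group.

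Antigen presentation and other immune genes rose by less. MHC class I genes were higher in 8 of 11 in both fits (median 1.39, and 0.81 with trends removed) and class II genes in 8 of 10 tested (1.41), 7 with trends removed (0.88). H2-D1 rose by 1.39 ± 0.22 (adjusted p = 3.8e-07; 0.95) and Psmb10, an immunoproteasome subunit, by 2.18 ± 0.28 (1.43), while B2m, their shared light chain, was at 0.09 ± 0.18 (adjusted p = 0.66). Cd74, the class II chaperone, rose by 1.21 ± 0.35 and was not past the threshold with trends removed. Interferon-stimulated genes were mostly not called: 10 of 30 tested rose and 2 fell. Oasl1 lay at 35.2, 45.2 and 86.5 CPM in WT/PEG and 92.7, 179 and 337 CPM in KO/PEG (1.85 ± 0.23, adjusted p = 3.3e-09; 1.42), and the transcription factors Irf1, Irf7 and Irf9 rose in both fits. Ifit2 and Gbp5 fell in the first fit alone. Complement genes rose in 10 of 19, led by Cfb, of the alternative pathway, at 2.85 ± 0.32, C4b at 1.90 ± 0.25 and the regulator Cfi at 2.25 ± 0.30, while Cd59a, a membrane inhibitor, fell by 0.71 ± 0.13. T and NK cell markers were low in both groups, at 5.39, 7.64 and 20.9 CPM summed in WT/PEG and 6.40, 15.6 and 58.9 CPM in KO/PEG, and 5 of 7 tested rose, 2 with trends removed. Mast cell proteases rose, Mcpt1 at 3.70 ± 0.40 (3.20 with trends removed) and Mcpt2 at 2.25 ± 0.22 (1.88). Mcpt4 and Tpsab1 rose in the first fit alone. Of 8 mast cell markers 7 rose and 1 fell, 5 and 1 with trends removed. Kit, the mast cell and pacemaker cell receptor, fell by 1.71 ± 0.19.

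Tight junction genes moved in both directions, with 10 of 17 tested higher and 4 lower. Cldn7 lay at 0.792, 2.21 and 3.06 CPM in WT/PEG and 15, 32 and 113 CPM in KO/PEG, without overlap (4.29 ± 0.34, adjusted p = 6.6e-14; 3.39). Cldn4 rose by 5.88 ± 0.52, Cldn3 by 4.49 ± 0.38, Cldn23 by 3.73 ± 0.32 and the pore-forming Cldn2 by 5.17 ± 0.57, all from WT/PEG medians near or under 1 CPM. Cldn18, the claudin of normal gastric epithelium, rose by 0.52 ± 0.09. Cldn8 fell by 2.46 ± 0.33 and Tjp1, the scaffold ZO-1, by 1.36 ± 0.30. Cldn6 and Cldn9 were too low to be tested.

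Glutathione and NRF2 target genes, which defend against oxidants and electrophiles, rose in 25 of 28 and fell in 1 (median 0.93), and in 23 with 1 lower with trends removed (0.61). Their summed level was 4820, 6264 and 7835 CPM in WT/PEG and 8028, 12680 and 16020 CPM in KO/PEG, just without overlap. Gpx2, the glutathione peroxidase of gut epithelium, lay at 54.3, 68.7 and 86.4 CPM in WT/PEG and 357, 553 and 1734 CPM in KO/PEG (3.47 ± 0.30, adjusted p = 7.4e-13; 2.68). Gstm1, a glutathione transferase, lay at 138, 203 and 279 against 484, 995 and 1248 CPM (2.16 ± 0.12, adjusted p = 1.6e-18; 1.49), and Me1, which makes NADPH, rose by 1.82 ± 0.15 (2.08). Prdx1 rose by 1.45 ± 0.13 and Hmox1, heme oxygenase, by 1.69 ± 0.17. Nfe2l2, encoding NRF2 itself, fell by 0.73 ± 0.16 (adjusted p = 0.00013; -0.69), and Nqo1, a much-used target, was at -0.05 and did not pass. Transferases of the alpha, mu and pi classes are near-identical within a class, so that their split was uncertain.

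Promoters of these genes were searched for the core of the antioxidant response element, TGACNNNGC, on both strands in the 250 bases before and 50 after each start in RefSeq (GRCm38.p6). It was held by 9 of the 24 NRF2 and glutathione genes with a promoter in the table (37.5%) and by 1869 of the 11129 tested genes with one (16.8%). In the other lists searched the share ran from 0% (fatty acid oxidation) to 27.8% (TCA cycle), with 26.7% in acid secretion. Among genes called at least 2-fold higher it was 15.6%, and among those at least 2-fold lower 16.9%. The windows below, all ahead of the start, show the core in capitals, as it reads on the gene's strand or as its reverse complement, for targets that rose in both fits and for Nfe2l2, which fell.
Prdx1, chr4:116685441-116685499, plus strand: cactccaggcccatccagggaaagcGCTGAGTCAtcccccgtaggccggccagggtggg
Gclm, chr3:122245398-122245456, plus strand: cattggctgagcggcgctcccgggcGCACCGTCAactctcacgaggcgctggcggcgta
Txnrd1, chr10:82859089-82859147, plus strand: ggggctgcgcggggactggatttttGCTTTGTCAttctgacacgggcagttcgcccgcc
Gsta3, chr1:21240439-21240497, plus strand: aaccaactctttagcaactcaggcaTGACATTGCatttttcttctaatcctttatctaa
Nfe2l2, chr2:75704870-75704913, minus strand: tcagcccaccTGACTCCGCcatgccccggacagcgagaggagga
Gclm, a subunit of the enzyme that starts glutathione synthesis, rose by only 0.39 ± 0.12 and Txnrd1, thioredoxin reductase, by 0.38 ± 0.14, while Prdx1 rose by 1.45 and Gsta3 by 2.05, so the size of the change differed among genes that hold the core.

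The same search was made for the interferon-stimulated response element, taken as 2 GAAA runs with any 2 bases between them, and for the ERR response element, TNAAGGTCA. The first was held by 15 of 23 interferon-stimulated genes (65.2%) and by 3.68% of all tested genes with a promoter, although only 10 of the listed genes had risen. The ERR element was held by 1 of 15 acid secretion promoters, by 3 of 64 nuclear OXPHOS promoters (4.69%), by 1 of 24 NRF2 and glutathione promoters (4.17%) and by no ERR and PGC-1, TCA cycle or fatty acid oxidation promoter, where 0.943% of all had it. Among genes called at least 2-fold lower the share with the ERR element was 1.3%, and among those at least 2-fold higher 1.46%. The 1 acid secretion gene was Kcnj16, the ion transport gene with the largest fall, shown with the element in capitals as its reverse complement.
Kcnj16, chr11:110967818-110967876, plus strand: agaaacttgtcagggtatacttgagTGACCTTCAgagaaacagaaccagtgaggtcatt
A match describes these letters in this window and was not tested for binding.

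Several gut differentiation markers rose, while the intestinal master regulators Cdx1 and Cdx2 stayed below the filter. Of 21 intestinal genes 12 were tested, 8 rose and 3 fell (8 and 2 with trends removed, and a median of -0.04 in KO/PEG 46), and Cdx1, Cdx2, Isx, Muc2, Cdh17, Alpi, Sis, Lct and Cps1 were too low to be tested. Clca1, a goblet cell product, lay at 2.26, 8.56 and 40.7 CPM in WT/PEG and 331, 1053 and 2874 CPM in KO/PEG (6.62 ± 0.61, adjusted p = 3e-12; 6.94). Vil1, the brush border protein villin, rose by 2.81 ± 0.25 and Lgals4, a gut lectin, by 3.01 ± 0.21, both also on the study's list. Hnf4g fell by 1.22. Among 19 gastric transcription factors 8 rose and 6 fell. Spdef, of mucous and goblet differentiation, rose by 2.87 ± 0.37 (adjusted p = 7.2e-09; 2.15), Elf3 by 1.34 ± 0.15 and Sox9 by 1.13 ± 0.20, while Gata6 fell by 1.29 ± 0.15 and Foxa2 by 1.21 ± 0.15. Markers of tuft cells, the chemosensory cells of the gland, rose in 7 of 8 tested in both fits (median 1.68, and 1.66 with trends removed), among them their master factor Pou2f3 at 2.10 ± 0.30 and the channel Trpm5 at 1.90 ± 0.30. Il25 was too low to be tested. Pou2f3 and Il17rb, at WT/PEG medians of 0.51 and 0.34 CPM, could not have passed the filter on low counts through WT/PEG alone. The tuft cell count and medians are therefore no measure of the whole list. ECL and neuroendocrine markers rose in 5 of 8 and fell in 1, and 4 rose and 2 fell with trends removed, where Ghrl, ghrelin, turned from 0.43 to -0.69. Of the 8, 5 are on the study's list. The transcripts that the study listed on these mice are no independent evidence of direction. Summed to genes, 30 of 38 with listed SPEM transcripts rose and 5 fell, and 4 of 8 with listed neuroendocrine transcripts rose and 3 fell. The 5 were Anpep, Bhlha15, Gif, Xbp1 and Pgc, whose transcripts the study also listed as lower. The study listed single transcripts of Eno2 and Slc18a2 as higher. Summed to genes, Eno2 fell by 0.33 (-0.56 with trends removed), and Slc18a2 was at -0.29 (0.24) and not called in either fit.

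Of 28 growth signal and Wnt, hedgehog and BMP pathway genes tested 6 rose and 14 fell, and 9 rose and 10 fell with trends removed (KO/PEG 46, median 0.03 beside -0.41). Egf, a growth factor of the acid-secreting gland, lay at 10.6, 28.8 and 44 CPM in WT/PEG and 0.646, 1.44 and 2.30 CPM in KO/PEG, without overlap (-4.26 ± 0.27, adjusted p = 5.7e-17; -3.96). Other ligands of the same receptor rose, Hbegf by 1.27 ± 0.14 and Areg by 1.64 ± 0.23. Ihh, the hedgehog of surface cells, rose by 1.88 ± 0.17, while Shh, that of parietal cells, fell by 0.50. Notum, a secreted Wnt inhibitor, rose by 2.85 ± 0.38, and the Wnt amplifier Rspo3 fell by 1.31. Proliferation genes showed no common direction, with 7 of 33 higher and 11 lower, and 6 and 6 with trends removed (median 0.12, and -0.22 in KO/PEG 46). Mki67 fell by 0.68 ± 0.17 in the first fit and was at 0.14 with trends removed, where it did not pass. Cholesterol synthesis genes rose in 14 of 25 and fell in 3 (17 and 1 with trends removed), with Pmvk at 1.43 ± 0.17 and Fdps at 1.14 ± 0.16, while Hmgcs1, the first committed enzyme, fell by 0.81 ± 0.19. Of iron genes 7 rose and 6 fell among 15 tested. Hamp2 fell by 1.82 ± 0.31 and its near-identical neighbour Hamp, hepcidin, rose by 4.04 ± 0.43.

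Red cell markers, which measure blood in the biopsy, rose in 5 of 5 (3 with trends removed), at 62.2, 211 and 332 CPM summed in WT/PEG and 132, 298 and 4175 CPM in KO/PEG, and most libraries of both groups overlapped. Smooth muscle markers fell in 9 of 10 (median -0.77, and -0.95 with trends removed), at 2958, 4343 and 4927 CPM summed in WT/PEG and 1189, 2081 and 4217 CPM in KO/PEG. KO/PEG 46 was the library at 4217, and its own median was 0.09. Neural and glial markers fell in 8 of 8 (-1.56; -1.26), at 42.5, 52.7 and 69.8 CPM against 9.26, 18.8 and 46.7 CPM. Myh11, smooth muscle myosin, fell by 1.65 ± 0.26 and Sox10, of enteric glia, by 1.95 ± 0.21. Collagens were mostly not called, with 1 of 14 higher and 5 lower, and 5 higher and 1 lower with trends removed. Col18a1, of basement membranes, rose in both, by 1.50 ± 0.14 (1.65 with trends removed). Squamous markers, which mark forestomach, were at 37.9, 182 and 1071 CPM summed in WT/PEG and 166, 566 and 1815 CPM in KO/PEG. Of 13 markers 2 rose, 1 fell and 10 were not called, at a median of -1.29 (-1.51 with trends removed). Most of the KO/PEG sum was Sprr1a, at 32.3, 105 and 220 CPM in WT/PEG and 140, 542 and 1244 CPM in KO/PEG, so the sum is no measure of the other markers. Fibroblast markers moved in both directions (1 of 6 higher, 3 lower), as did endothelial markers (1 of 5 higher, 3 lower), and 2 of 5 adipocyte markers fell (median -1.28, and 1.46 in KO/PEG 46). Myeloid markers rose in 7 of 11 tested (8 with trends removed). Neutrophil markers rose in 4 of 5 tested out of 7 listed (2), and eosinophil markers in 3 of 3 out of 6 listed (3). Both were low, with median sums of 2.30 and 0.884 CPM in WT/PEG and 6.59 and 3.95 CPM in KO/PEG. Prg2 and Retnlg, highest at 0.216 and 0.107 CPM in WT/PEG, could pass the filter on low counts only through other groups. These counts are therefore no measure of the whole lists. No skeletal muscle marker of the 4 tested was called. The part of biopsy depth and of neighbouring tissue in the other results was not tested.

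Outside the lists, the genes with the largest changes whose groups did not overlap and that the study did not list included several for secreted proteins. Sftpd, a surfactant lectin that binds microbes, lay at 0, 0.2 and 1.23 CPM in WT/PEG and 67.2, 97.8 and 196 CPM in KO/PEG (7.75 ± 0.38, adjusted p = 1.5e-20). Aqp5, the water channel of salivary and other glands, rose by 6.99 ± 0.68 and Fgl1, a secreted fibrinogen-like protein, by 5.70 ± 0.29. Prl2c2, from a family of near-identical genes, rose by 8.39 ± 0.78 from 0 to 0.272 CPM in WT/PEG. Among the genes that fell, Lgals2, a galectin, lay at 522, 686 and 860 CPM in WT/PEG and 8.39, 29.6 and 48.6 CPM in KO/PEG (-4.43 ± 0.18, adjusted p = 4.8e-23; -5.33). Pla2g1b, a secreted phospholipase, lay at 18120, 30780 and 45650 against 61.2, 904 and 9919 CPM (-3.85 ± 0.65, adjusted p = 1.5e-06). Gpm6a fell by 6.51 ± 0.29 and Pthlh, encoding parathyroid hormone-related protein, by 5.23 ± 0.43. Amy2a1, one of a cluster of near-identical amylase genes, was at 4.53, 14.2 and 20.6 CPM in WT/PEG and at 0 counts in all 13 KO/PEG libraries, which is at least 919-fold lower against a floor of 3 counts over the group. Of the pancreatic acinar markers, 5 of 8 were tested, 2 rose and 3 fell, and their part in the amylase result was not tested.

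The KO/PEG libraries were compared by their animal number. The 7 numbered 100 or above and the 6 below 100 differed in 187 of 15239 genes (1.23%), 92 (0.604%) higher and 95 (0.623%) lower in the former, while WT/PEG held only numbers of 100 or above. With the 7 alone as the KO/PEG group, 11039 genes were called, and 9617 with the 6 alone.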

How the data were processed

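Per the labels and the study's methods, RNA from the gastric corpus was made into poly(A)-selected stranded libraries and sequenced as single reads of 75 cycles. The authors quantified transcripts with kallisto 0.42.4 against GRCm38, and the deposited values are estimated counts per transcript for each library. The strand setting is not given in the sources used here, so overlapping genes are uncertain. Multi-mapping reads were split by the authors' tool, so that members of near-identical families are uncertain.

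Of 94080 deposited transcripts, 92372 were paired with a gene through GENCODE mouse release 21 and summed to 31517 genes, and the remaining 1708 (0.329% to 1.21% of counts in the 24 libraries) were left out. Sums were rounded to whole numbers. Genes were kept by edgeR's filter (minimum count 10, minimum total 15), scaled by TMM and fitted over all 44 libraries in 4 groups with edgeR 4.0.16 (R 4.3.3), glmQLFit and glmQLFTest, at an adjusted p threshold of 0.05. The prior count was 2. Trends on transcript length and GC content were removed as splines of 5 degrees of freedom in each library, entered as offsets. The scripts were tested on simulated data. Alternatives are given in the closing section.

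Groups came from the sample titles. Animal numbers name the libraries: 2 WT/PEG libraries carry number 172, and whether they came from the same mouse is not stated. Their counts differed beyond counting noise, so they were not copies of 1 library, and both were kept. By chi-square per degree of freedom they ranked 11 among WT/PEG pairs, counted from the most alike, at 18.4. The most alike pair was 172_2 and 130, at 5.98. With the 2 libraries numbered 172 summed to 1, 10972 genes were called. Number 110 occurs in KO/PEG and in KO/NTZ, and whether it names 1 mouse is not stated. Without KO/PEG 110, 10890 genes were called. P-values measure the spread between libraries.

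The members, the gene lists and the tests were chosen with earlier results of these data known. Genes were named by a rule: Atp4b; the 12 genes that rose and fell most without overlap, with at least 10 CPM and off the study's lists; and in each list the smallest p-values, the highest levels, members against the trend and defining members. A few of these were left unprinted, and some members were named after their values were seen. Promoters came from RefSeq on GRCm38.p6, which held 11129 of 14901 tested genes matched by symbol. PCR duplicates cannot be removed from these files, so that the floor of 3 counts covers counting error only.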

Additional observations from a re-analysis of the deposited data

How the results depend on the processing

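The 150 genes named above were refitted under 15 alternatives, 3 of which (length and GC trends removed, without KO/PEG replicate 46, and without the 2 WT/PEG libraries highest in antral markers) were chosen after seeing the data. Direction turned only with the trends removed, for Esrra (-0.040), Mki67 (0.14), Rab25 (-0.041) and Vamp2 (-0.0072), none of which then passed, and for Ghrl (-0.69), which was then called lower. With these 5, the calls of 12 genes were lost or turned with the trends removed. Kcnq1 (-0.27) and Tff1 (-0.94), not called in the first fit, were then called lower. Calls were lost for 7 genes with library size alone, for 7 with only KO/PEG animals numbered below 100 and for at most 4 under any other alternative, apart from genes left untested by a filter. No paired analysis was possible because KO/PEG and WT/PEG share no animal number.

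With trends removed the list medians moved to -0.26 for nuclear OXPHOS subunits and -0.0094 for glycolysis, which reversed, to -0.65 for fatty acid oxidation, 0.85 for intestinal epithelium, 0.36 for gastric transcription factors, 0.29 for iron, 0.61 for NRF2 and glutathione, 0.88 and 0.81 for MHC class II and I, 0.51 for ribosomal proteins, 0.074 for the mitochondrial ribosome and -0.15 for skeletal muscle markers, which reversed. With library size alone, which by construction moves every gene by one shift per library, 2967 genes were lower, and medians moved to -0.21 for the TCA cycle, -0.017 for fatty acid oxidation, 0.71 for glycolysis, 0.26 for endoplasmic reticulum folding, 0.45 for gastric transcription factors, 0.37 for iron, 1.20 for NRF2 and glutathione, 0.40 for the cell cycle, 1.03 for myeloid, -0.055 for endothelial markers and 0.80 for the neuroendocrine transcripts listed by the study. With a minimum count of 50, which tests fewer genes, medians reversed to 0.52 for pancreatic acinar markers, -0.50 for skeletal muscle markers and -0.27 for the listed neuroendocrine transcripts. In a fit of the 24 libraries alone the skeletal muscle median reversed to -0.020. With the most abundant transcript of each gene only, the iron median was 0.37 and that of the listed neuroendocrine transcripts 1.45. With limma the neutrophil marker median was 1.13. With only KO/PEG animals numbered 100 or above, medians were 3.21 for mucosal defence, 1.71 for the listed SPEM transcripts and -4.23 for the 1 antral endocrine marker tested, which was -3.96 without KO/PEG replicate 46, -2.39 without KO/PEG replicate 110 and -0.081 without those 2 WT/PEG libraries. DESeq2 called 730 genes between the KO/PEG number groups, 330 higher and 400 lower, where edgeR called 187. Apart from construction, the cause of these moves was not tested.

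Over all genes the number called ranged from 9323 with a minimum count of 50 to 12374 with no filter on low counts, and was 11336 without KO/PEG replicate 46. For genes too low to be tested, low expression and limited depth cannot be told apart.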
